A study of Homo sapiens with 8 samples.

Results

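The genes described here are TAGLN and 9 other genes of the contractile actin cytoskeleton. They were chosen by name for what they encode, with no measured value in the rule, though earlier results of these data were known. The deposited tables listed 25411 genes by symbol, and all 10 of the chosen genes (TAGLN, TAGLN2, ACTA2, CNN1, CNN2, MYL9, TPM1, TPM2, CALD1 and MYLK) were found in every library. Their RNA was followed in 8 RNA-Seq libraries from BEAS-2B, a bronchial epithelial line of human origin that has been immortalised, with 4 groups of 2 biological replicates. Untreated cells (UT) were the control, and nickel-exposed cells (Ni-E) were kept for 6 weeks in 100 µM NiCl2. The nickel-washed-out population (Ni-W) had first been exposed in that way, after which single cells were grown into colonies and 1 randomly picked population was kept without nickel for more than 6 months, so that Ni-W stands for 1 clone and P values measure the spread between these libraries. For the HCl3 libraries the labels repeat the treatment of Ni-W word for word, but they gave neither the time without nickel nor the relation to the Ni-W population. An experiment number was given for Ni-E (2 in both libraries) and for HCl3 (3 and 4) but for neither UT nor Ni-W, so that experiment and group cannot be told apart. Total counts ran from 26383920 to 45692298 reads per library, and 3 reads in a library, the smallest level counted here as seen, corresponded to between 6.57e-06 and 1.14e-05% of its reads.

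Contractile force is made when myosin pulls on actin filaments, and the chosen genes encode filament components and the proteins that set how myosin reaches them. ACTA2 encodes smooth muscle alpha-actin. TAGLN (transgelin, also called SM22-alpha) and TAGLN2 are small calponin-family proteins that bind and bundle actin filaments, and CNN1 and CNN2 encode calponins, which bind actin and restrain myosin ATPase activity. Tropomyosins (TPM1, TPM2) lie along the actin filament and caldesmon (CALD1) binds there with them, while MYL9 is a regulatory light chain of myosin that MYLK, the myosin light chain kinase, phosphorylates. Many of these genes are known as targets of serum response factor (SRF), which binds a DNA element called the CArG box with the myocardin-related cofactors MKL1 and MKL2. They are used as markers of smooth muscle cells and myofibroblasts, and they are also made in cultured epithelial cells that spread on a rigid surface.

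Epithelial and smooth muscle markers were examined before the genes themselves. The keratins KRT7, KRT8 and KRT18 were abundant in each library, whereas CDH1, which encodes E-cadherin, was between 0.01 and 0.11 RPKM (reads per transcript length, scaled by library depth) and the basal keratin KRT5 had at most 3 reads in any library. Of 10 smooth muscle markers, SMTN (between 20.4 and 25.7 RPKM) was the most abundant, followed by SYNM (between 1.32 and 4.36 RPKM), while ITGA8 was at 0 and ACTG2 and KCNMB1 had at most 3 reads in each library. The smooth muscle myosin MYH11 was between 0.03 and 0.08 RPKM. Among 7 fibroblast markers COL1A1, THY1 and PDGFRB were present and DCN was at 0. PDGFRA was between 0 and 0.02 RPKM and LUM between 0 and 0.91. COL1A2 was between 0.03 and 0.25 RPKM outside HCl3 and at 2.05 and 2.01 for HCl3. Among 5 endothelial and blood markers CD14 was the most abundant at a mean of 2.48 RPKM. EPCAM was between 0.95 and 1.79 RPKM, and KRT19, another simple keratin, was between 0 and 0.02 RPKM in the UT and Ni-E libraries and between 0.53 and 0.78 in the others. Of the 7 epithelial markers, 3 were thus abundant and CDH1, KRT5, EPCAM and KRT19 were at 0 or low, so the list bears out the labelled cell type only in part.

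Promoters were examined for 8 of the 10 genes, in RefSeq windows of 300 bases (GRCh38.p14) that reach from 250 bases before a start site to 50 after it. TAGLN and MYL9 had no window and were not searched. There were 15 windows for these genes and 35116 over all genes. The CArG box was searched on both strands as CC, then 6 bases that are each A or T, then GG, and it was present in 1.29% of all windows. An exact box was found in the only window of MYLK, from -94 to -85 counted from the start site of that window. CNN2 had an exact box from -89 to -80. MYLK has 6 RefSeq transcripts, and which of them starts at the site of its window was not tested. The box is thus a match in that window only and is not placed at the start of the full-length kinase. In 1 of its 2 windows ACTA2 had 2 boxes with 1 core base other than A or T, from -121 to -112 and from -71 to -62, and CALD1 had 1 from -26 to -17. Such near matches were present in 6.94% of all windows. The 250 bases before the start site are printed for the genes with an exact box, for ACTA2, whose window had 2 near matches, and for TPM1, whose window had neither. Capitals mark the box or near match, and each sequence reads 5′ to 3′ towards the gene.
MYLK, chr3:123620549-123620798, minus strand: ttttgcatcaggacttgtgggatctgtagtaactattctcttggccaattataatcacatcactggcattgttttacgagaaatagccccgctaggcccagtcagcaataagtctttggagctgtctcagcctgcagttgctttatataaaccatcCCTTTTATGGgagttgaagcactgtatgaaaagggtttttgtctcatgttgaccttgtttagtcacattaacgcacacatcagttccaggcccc
CNN2, chr19:1026358-1026607, plus strand: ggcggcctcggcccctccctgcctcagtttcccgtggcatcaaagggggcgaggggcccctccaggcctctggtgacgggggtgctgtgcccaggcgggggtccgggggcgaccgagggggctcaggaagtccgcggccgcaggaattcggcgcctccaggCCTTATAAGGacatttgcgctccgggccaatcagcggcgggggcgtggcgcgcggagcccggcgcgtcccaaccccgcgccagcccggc
ACTA2, chr10:88952774-88953023, minus strand: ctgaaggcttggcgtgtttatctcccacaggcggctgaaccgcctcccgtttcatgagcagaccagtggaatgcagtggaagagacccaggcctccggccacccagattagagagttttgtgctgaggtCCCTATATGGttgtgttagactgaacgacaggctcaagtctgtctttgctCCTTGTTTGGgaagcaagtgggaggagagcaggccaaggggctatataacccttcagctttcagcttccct
TPM1, chr15:63048239-63048488, plus strand: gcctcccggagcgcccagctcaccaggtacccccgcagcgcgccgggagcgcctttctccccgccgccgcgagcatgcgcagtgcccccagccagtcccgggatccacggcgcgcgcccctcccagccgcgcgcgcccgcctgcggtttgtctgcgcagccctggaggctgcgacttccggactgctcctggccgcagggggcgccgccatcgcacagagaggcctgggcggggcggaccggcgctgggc
The motif CATTCC, bound by TEAD factors, was found on either strand in windows of ACTA2, CALD1 and MYLK and in 14% of all windows, and TATAAA in windows of CALD1 and MYLK and in 11.5% of all windows. The only overlap between these matches was among 2 TATAAA matches of MYLK on opposite strands. These matches are a description of the letters in the windows, and no binding was measured in these libraries.

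**Figure D1:**
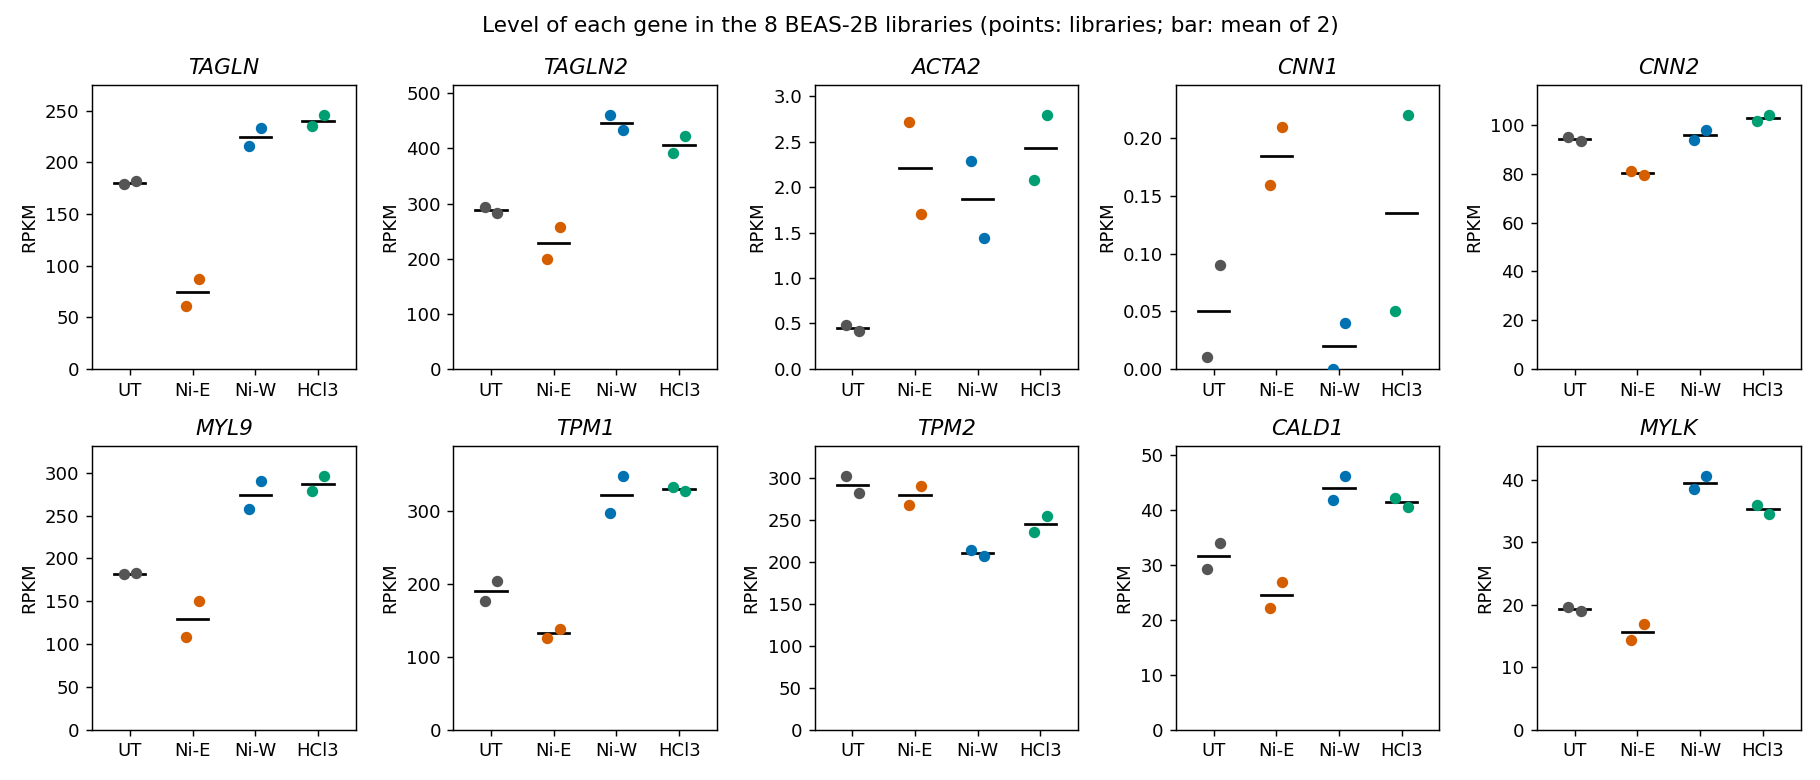
RPKM (vertical axes, linear and starting at 0) of the 10 genes in the UT, Ni-E, Ni-W and HCl3 libraries. Points are single libraries and bars are means of 2 libraries. TAGLN was lowest in both Ni-E libraries (61.1 and 87.3), ACTA2 was lowest in both UT libraries (0.48 and 0.42), and TPM2 was lowest in both Ni-W libraries (214 and 207).

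TAGLN (hg19 chr11:117070040-117075508, plus strand) was lower while nickel was present. Its level was 179 and 182 RPKM in the UT libraries, 61.1 and 87.3 for Ni-E, 216 and 233 for Ni-W, and 235 and 246 for HCl3. Each Ni-E library was below every library of the other groups, and each Ni-W and HCl3 library was above both UT libraries. The level fell by 1.34 ± 0.15 on the log2 scale (± SE) in Ni-E against UT, which is 2.53-fold (DESeq2 adjusted P = 2.07e-17). It was 3.04-fold higher in Ni-W than in Ni-E (DESeq2 adjusted P = 2.27e-32) and 3.22-fold higher in HCl3 than in Ni-E (DESeq2 adjusted P = 1.31e-11). Against UT, the log2 difference was 0.28 ± 0.10 for Ni-W (DESeq2 adjusted P = 0.0206) and 0.36 ± 0.089 for HCl3 (DESeq2 adjusted P = 0.00039), both under the 1.5-fold that was asked of a called gene. TAGLN was used by the study as an example of a gene that is low only during exposure, so its direction in these samples is not independent evidence. The Ni-E call was lost with limma on log2(RPKM + 1), where the log2 difference was -1.29 (limma adjusted P = 0.0901) and no gene of the table passed. In bulk RNA a lower level can come from fewer cells that express a gene or from less RNA in each cell, and these cannot be told apart.

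TAGLN2 (hg19 chr1:159887897-159895332, minus strand), the most abundant of the 10 genes per length over the mean of all 8 libraries though below TPM2 in the means of UT and Ni-E, rose in Ni-W against UT and was higher in both washed-out groups than in Ni-E. Its level was 294 and 283 RPKM for UT, 199 and 257 for Ni-E, 460 and 433 for Ni-W, and 392 and 422 for HCl3. No library of one group overlapped with those of another. The gene was higher by 1.51-fold for Ni-W against UT (DESeq2 adjusted P = 1.08e-08), and this call lay so close to 1.5-fold that it was lost without UT replicate 2 (log2 difference 0.56) and without Ni-W replicate 1 (0.56). The difference was 1.36-fold in HCl3 against UT (DESeq2 adjusted P = 8.76e-06), and Ni-E was lower than UT by 0.40 ± 0.13 on the log2 scale (DESeq2 adjusted P = 0.0188), both short of 1.5-fold. Against Ni-E, TAGLN2 was 1.97-fold higher in Ni-W and 1.77-fold higher in HCl3 (DESeq2 adjusted P = 1.79e-17 and 5.91e-15).

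The ratio of TAGLN to TAGLN2 within a library does not depend on how libraries are scaled to each other. This ratio of RPKM values was 0.626 ± 0.027 for UT, 0.324 ± 0.023 for Ni-E, 0.504 ± 0.048 for Ni-W and 0.591 ± 0.013 for HCl3 (mean ± SD, n = 2 each). The Ni-E ratio was 0.517 of that in UT, and no library of a treated group overlapped with the UT libraries. TAGLN thus moved further down than its relative in Ni-E, by more than the spread of the replicates. With 2 libraries against 2, an exact permutation test cannot give a P value under 0.333, so no P value is given for the ratios.

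The calponins showed smaller or very low values. CNN2 (hg19 chr19:1026298-1039064, plus strand) was 95.1 and 93.6 RPKM for UT, 81.0 and 79.4 for Ni-E, 94.1 and 98.2 for Ni-W, and 102 and 104 for HCl3. It was the steadiest of the 9 genes with more than a few reads, and no comparison reached 1.5-fold. The Ni-E libraries were below all others, with a log2 difference from UT of -0.29 ± 0.10 (DESeq2 adjusted P = 0.0474). For Ni-W against UT the interval of the log2 difference was -0.20 to 0.18 (95%), and for HCl3 against UT it was -0.10 to 0.24. CNN1 (hg19 chr19:11649579-11661138, plus strand), the smooth muscle calponin, had 1 and 4 reads for UT, 10 and 13 for Ni-E, 0 and 2 for Ni-W, and 3 and 15 for HCl3. These counts lie near 3 reads in most libraries, so no fold change is given for CNN1.

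The tropomyosins moved apart. TPM1 (hg19 chr15:63340636-63364113, plus strand) was 177 and 205 RPKM for UT, 126 and 138 for Ni-E, 298 and 349 for Ni-W, and 333 and 328 for HCl3. It was higher than in UT by 1.65-fold for Ni-W and by 1.67-fold for HCl3 (DESeq2 adjusted P = 1.53e-08 and 1.42e-12). In Ni-E it fell by 0.59 ± 0.12 on the log2 scale (DESeq2 adjusted P = 1.99e-05), almost exactly 1.5-fold. That call was lost when size factors came from TMM or the fit held all 8 libraries, with either replicate block, with limma, without UT replicate 2 (log2 difference -0.48) and without Ni-E replicate 1 (-0.54). TPM2 (hg19 chr9:35682923-35690053, minus strand) went the other way in the washed-out cells, at 302 and 282 RPKM for UT, 268 and 291 for Ni-E, 214 and 207 for Ni-W, and 235 and 255 for HCl3. Its log2 difference from UT was -0.51 ± 0.098 for Ni-W (DESeq2 adjusted P = 2.84e-06) and -0.30 ± 0.093 for HCl3 (DESeq2 adjusted P = 0.0053), short of 1.5-fold in both. The UT and Ni-E libraries overlapped for TPM2 (95% interval of the log2 difference -0.33 to 0.09). HCl3 against Ni-E gave -0.20 ± 0.080 (DESeq2 adjusted P = 0.0356), a direction that turned to 0.016 when GC and length trends were taken out.

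Since TPM1 rose while TPM2 did not, the ratio of TPM1 to TPM2 within a library changed more in the washed-out cells than the level of either gene. It was 0.656 ± 0.101 for UT, 0.473 ± 0.0039 for Ni-E, 1.54 ± 0.21 for Ni-W and 1.35 ± 0.090 for HCl3 (mean ± SD, n = 2 each). TPM2 transcripts outnumbered those of TPM1 per length in each UT and Ni-E library, and TPM1 outnumbered TPM2 in each Ni-W and HCl3 library. The ratio was 2.35 times that of UT in Ni-W and 2.06 times in HCl3. Reads with several alignments had been removed by the authors, so reads from stretches that tropomyosin genes share could have been lost, and levels of close relatives (tropomyosins, actins, and TAGLN2 and CNN2 with their copies) are uncertain to that extent.

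**Figure D2:**
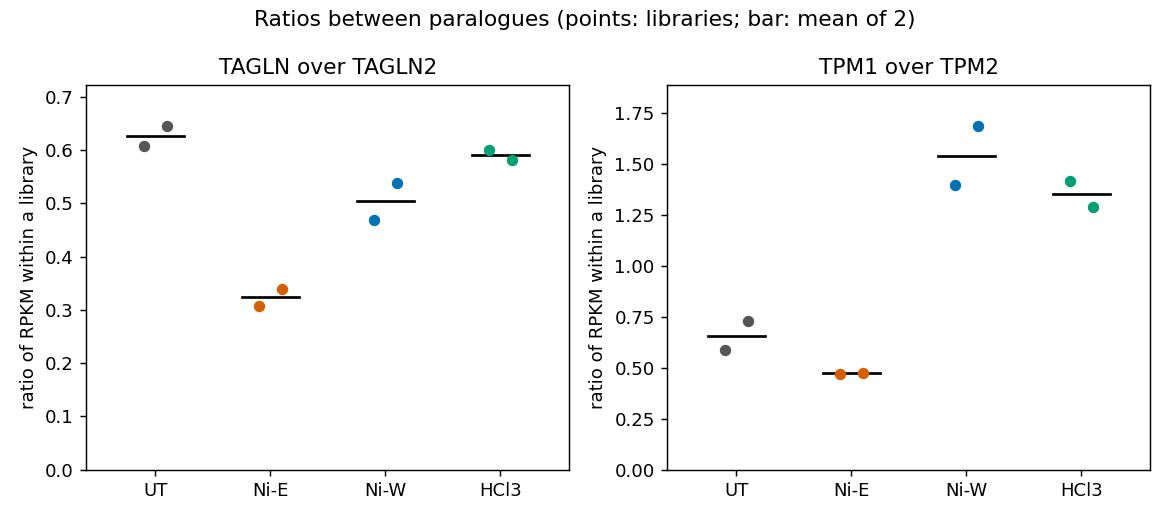
Ratio of RPKM values within each library (vertical axes, no unit, starting at 0) for TAGLN over TAGLN2 and TPM1 over TPM2. Points are libraries and bars are means of 2. The TAGLN ratio was lowest in Ni-E (mean 0.324), and the TPM1 ratio was 1.54 for Ni-W and 1.35 for HCl3 against 0.656 for UT.

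CALD1 (hg19 chr7:134576151-134655480, plus strand) was highest in the washed-out cells, at 29.3 and 34.0 RPKM for UT, 22.1 and 26.9 for Ni-E, 41.8 and 46.1 for Ni-W, and 42.2 and 40.5 for HCl3. Both washed-out groups were above UT and both Ni-E libraries were below it, without overlap. Its log2 difference from UT was -0.43 ± 0.13 for Ni-E, 0.45 ± 0.12 for Ni-W and 0.34 ± 0.10 for HCl3 (DESeq2 adjusted P = 0.0127, 0.000707 and 0.00558), each under 1.5-fold. Against Ni-E it was 1.83-fold higher in Ni-W and 1.69-fold higher in HCl3 (DESeq2 adjusted P = 3.87e-14 and 3.42e-14).

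The kinase MYLK rose in both washed-out groups, and the light chain MYL9 rose in HCl3. MYL9 (hg19 chr20:35169887-35178226, plus strand) was 181 and 183 RPKM for UT, 108 and 150 for Ni-E, 258 and 290 for Ni-W, and 279 and 296 for HCl3. It was 1.52-fold higher in HCl3 than in UT (DESeq2 adjusted P = 3.98e-10), a call that was lost without HCl3 replicate 2 (log2 difference 0.56), and 1.47-fold higher in Ni-W (DESeq2 adjusted P = 1.63e-06), short of the threshold. The Ni-E libraries were below both UT libraries, with a log2 difference of -0.56 ± 0.14 (DESeq2 adjusted P = 0.00152), short of it as well. MYLK (hg19 chr3:123331143-123603149, minus strand) was 19.7 and 18.9 RPKM for UT, 14.4 and 16.9 for Ni-E, 38.5 and 40.6 for Ni-W, and 36.0 and 34.6 for HCl3. These levels make MYLK the gene with the largest rise in Ni-W against UT among the 8 abundant genes, at 1.99-fold (log2 difference 0.99 ± 0.099, DESeq2 adjusted P = 2.36e-21). The rise was 1.74-fold in HCl3 (DESeq2 adjusted P = 4.83e-17), and the Ni-E libraries were lower than UT by 0.36 ± 0.12 on the log2 scale (DESeq2 adjusted P = 0.0247).

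ACTA2 (hg19 chr10:90694831-90751147, minus strand) stood apart from the others, since it was higher in every treated group than in UT. It had 35 and 21 reads for UT, 184 and 114 for Ni-E, 206 and 87 for Ni-W, and 150 and 210 for HCl3, or 0.48 and 0.42, 2.72 and 1.71, 2.29 and 1.44, and 2.08 and 2.79 RPKM. Each treated library was above both UT libraries, while the 3 treated groups overlapped with each other. The rise against UT was 4.83-fold in Ni-E, 4.11-fold in Ni-W and 5.30-fold in HCl3 (DESeq2 adjusted P = 4.74e-06, 1.42e-05 and 2.25e-09). Without Ni-E replicate 1 the Ni-E call was lost (log2 difference 1.88, DESeq2 adjusted P = 0.137), and without Ni-W replicate 1 the Ni-W call was lost (1.67, DESeq2 adjusted P = 0.141). Per length, ACTA2 stayed far below the other abundant genes here even at its highest. Its hg19 span shares 860 bases with FAS, a death receptor gene on the opposite strand, whose level was 1.30 and 1.33 RPKM for UT, 4.25 and 2.81 for Ni-E, 2.69 and 2.28 for Ni-W, and 2.64 and 2.64 for HCl3. Whether strand was used in counting was not stated, and the part of FAS reads in the ACTA2 values was not tested.

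Opposite-strand neighbours of the other genes had few reads. LOC100652768, which overlaps TAGLN, had between 5 and 17 reads per library, MYLK-AS1, which overlaps MYLK, between 11 and 34, and LOC101926987, which overlaps MYL9, between 0 and 2. Each of the 8 abundant genes (all but ACTA2 and CNN1) had between 2743 and 33495 reads in a library.

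**Figure D3:**
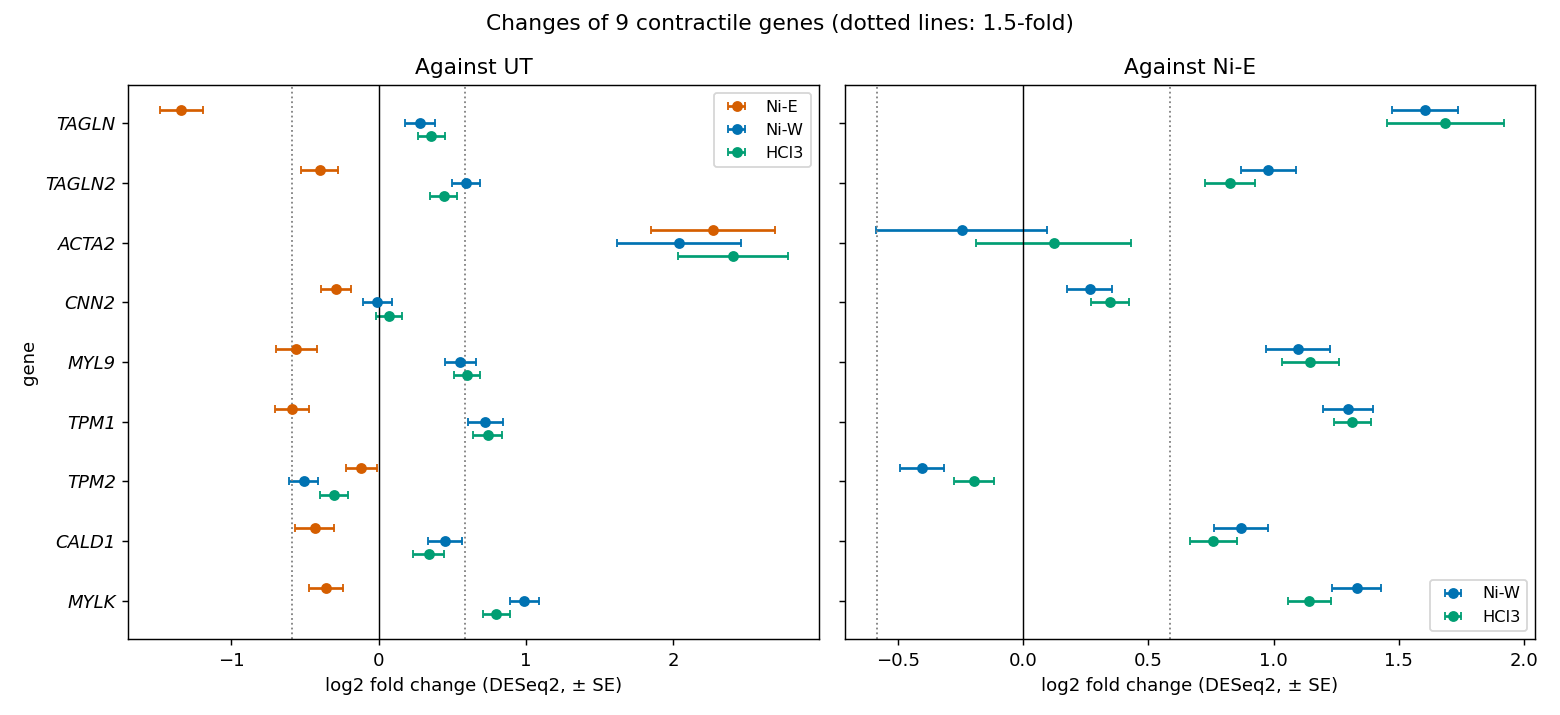
Log2 fold change (horizontal axis, DESeq2) of 9 genes against UT (left) and against Ni-E (right), with CNN1 left out for its low counts. Points are estimates, bars are ± SE, and dotted lines mark 1.5-fold. TAGLN lay at -1.34 for Ni-E, ACTA2 lay above 2 in all 3 groups against UT, and 6 genes lay beyond 1.5-fold in both washed-out groups against Ni-E.

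Counts of called genes are set beside those of all genes, where a call needs an adjusted P value under 0.05 and at least 1.5-fold in DESeq2. Each of the 10 genes was tested in each comparison. In Ni-E against UT, 1 gene rose (ACTA2) and 2 fell (TAGLN, TPM1), where 5.80% of 14478 genes tested were called, 3.75% higher and 2.05% lower. The count came to 1 gene without Ni-E replicate 1 and to 4 without Ni-E replicate 2. Without the fold threshold 8 of the 10 had an adjusted P value under 0.05, where 11.6% of all genes did, and CNN1 and TPM2 did not.

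Both washed-out groups had more of the genes raised than lowered against UT. In Ni-W, 4 rose (TAGLN2, ACTA2, TPM1, MYLK) and none fell, where 15.7% of 15826 genes were called, 10.9% higher and 4.83% lower. In HCl3, 4 rose (ACTA2, MYL9, TPM1, MYLK) and none fell, where 14.8% of 15766 genes were called, 11.1% higher and 3.74% lower. Without the fold threshold 8 of the 10 passed in each, 7 of them higher and TPM2 lower, where 31.1% of all genes passed for Ni-W and 31.4% for HCl3.

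Against Ni-E, the same 6 genes were higher in Ni-W and in HCl3 (TAGLN, TAGLN2, MYL9, TPM1, CALD1, MYLK), and none was lower. For Ni-W 20.5% of 15989 genes were called, 11.7% higher and 8.81% lower, and for HCl3 17.1% of 15953 genes were called, 10.4% higher and 6.78% lower. Here too 8 of the 10 had an adjusted P value under 0.05, where 39.2% of all genes did for Ni-W and 37.6% for HCl3. Comparisons against UT share the UT libraries and those against Ni-E share the Ni-E libraries, so a repeated direction among them is not separate evidence.

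Over the 9 genes other than CNN1, the median log2 difference was -0.40 for Ni-E against UT, 0.55 for Ni-W against UT and 0.44 for HCl3 against UT. It was 0.98 for Ni-W against Ni-E and 0.83 for HCl3 against Ni-E. Over all genes tested, the median lay between -0.0016 and 0.017 in these comparisons. The 10 genes together took 0.230% of the reads in each UT library, 0.161 and 0.190% for Ni-E, 0.306 and 0.320% for Ni-W, and 0.308 and 0.316% for HCl3.

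HCl3 and Ni-W were compared directly. None of the 10 genes was called, where 4.77% of 14956 genes were (3.10% higher and 1.66% lower in HCl3), and 1 gene, TPM2, had an adjusted P value under 0.05 (log2 difference 0.21 ± 0.074, DESeq2 adjusted P = 0.0316), where 16.6% of all genes did. At an unadjusted P value under 0.05 there were 3 of the 10, and the edgeR quasi-likelihood test called none either. The 95% interval of the log2 difference was -0.06 to 0.23 for TAGLN, -0.14 to 0.18 for TPM1 and -0.11 to 0.21 for MYL9. A 1.5-fold difference lay outside each of these intervals. They cover only the spread between 2 libraries a group, with Ni-W as 1 clone, and not that between washed-out populations. For ACTA2 the interval was -0.20 to 0.93, so a level 1.5-fold higher in HCl3 than in Ni-W was not excluded.

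The order of the group means was read beside these tests, which did not separate every step. TAGLN, CNN2, MYL9 and TPM1 had their highest mean in HCl3, then Ni-W, UT and Ni-E, and TAGLN2, CALD1 and MYLK in Ni-W, then HCl3, UT and Ni-E. HCl3 and Ni-W were neighbours at the top for all 7 of these genes, with DESeq2 adjusted P values between 0.0572 and 0.928. UT stood above Ni-E by a called difference for TAGLN and TPM1, and by an adjusted P value under 0.05 but less than 1.5-fold for the other 5. The lower washed-out mean stood above UT by a called difference for TPM1 and MYLK. For TAGLN, TAGLN2, MYL9 and CALD1 that step had an adjusted P value under 0.05 but less than 1.5-fold. For CNN2, Ni-W and UT were not separated (DESeq2 adjusted P = 0.968). For ACTA2 the 3 treated groups were not separated from each other (DESeq2 adjusted P = 0.806 for HCl3 against Ni-E and 0.626 for Ni-E against Ni-W), and Ni-W was above UT. TPM2 was ordered UT, Ni-E, HCl3 and Ni-W from high to low, and the UT and Ni-E means did not differ beyond their spread (DESeq2 adjusted P = 0.561).

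**Figure D4:**
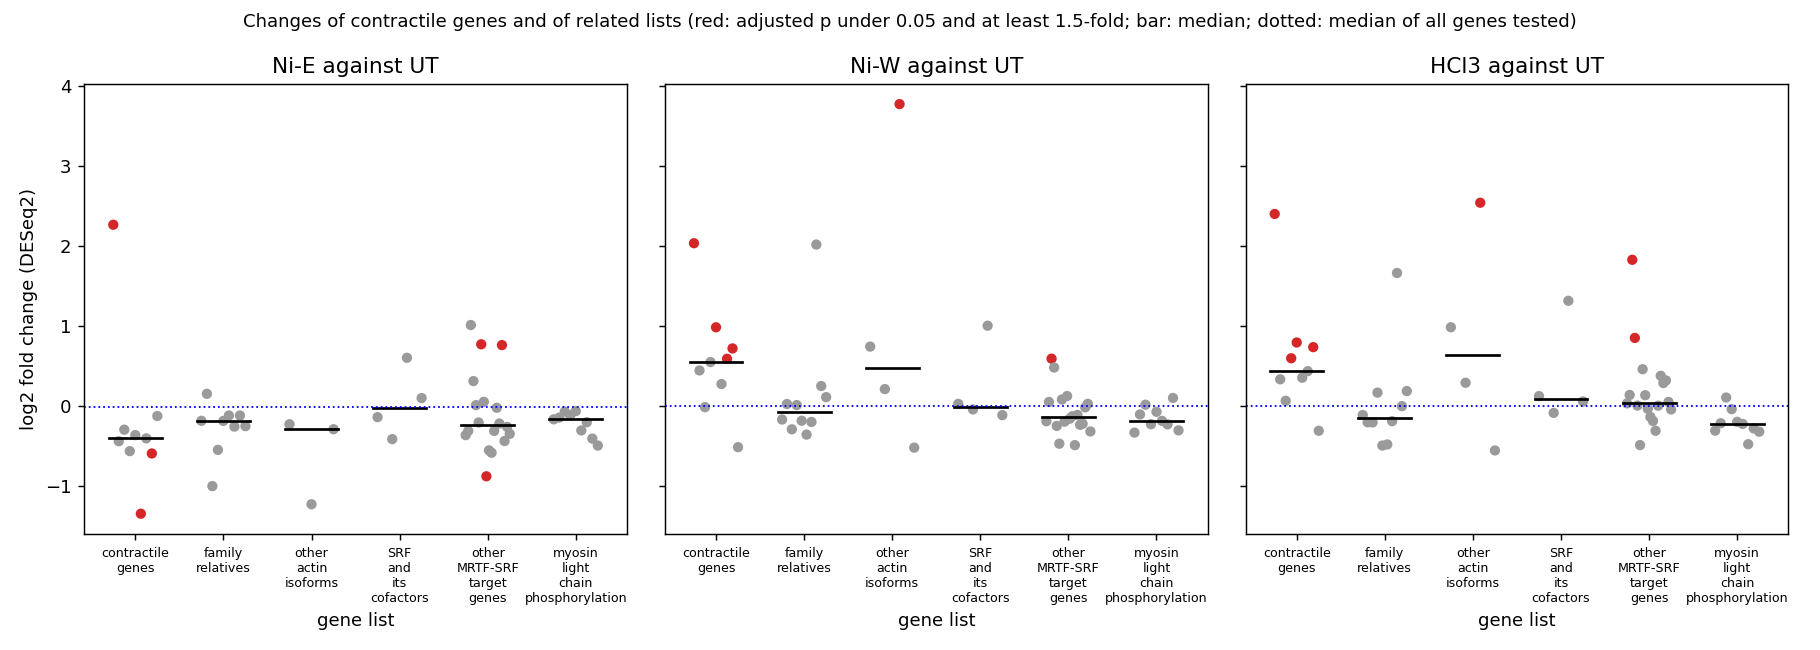
Log2 fold change (vertical axis, DESeq2) against UT of 9 contractile genes (CNN1 left out) and of 5 related lists, 1 panel per treated group. Points are genes, red where called, bars are list medians and the dotted line is the median of all genes tested. No gene of the myosin light chain phosphorylation list or of SRF and its cofactors was called in any of the 3 panels.

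The regulators of these genes were examined at the RNA level. SRF had a mean of 15.1 RPKM for UT, 17.0 for Ni-E, 14.4 for Ni-W and 16.4 for HCl3, and MKL1 had 11.9, 11.2, 12.5 and 13.5. MKL2 had 6.26, 4.91, 6.25 and 6.15 RPKM, with a log2 difference of -0.41 ± 0.13 for Ni-E against UT (DESeq2 adjusted P = 0.0273). None of them reached 1.5-fold in any of the 6 comparisons. MYOCD, the cofactor known from cardiac and smooth muscle, was between 0.01 and 0.05 RPKM in each library.

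Among 18 other known target genes of SRF and its cofactors, 2 rose and 1 fell in Ni-E against UT, where 5.80% of all genes were called. FILIP1L, which encodes a filamin-interacting protein, fell by 0.87 ± 0.13 on the log2 scale (DESeq2 adjusted P = 3.00e-09), while FHL1, a LIM domain protein, rose by 0.78 ± 0.12 (3.93e-08) and TES, a focal adhesion protein, by 0.77 ± 0.17 (0.000307). In Ni-W against UT, 1 rose and none fell, where 15.7% of all genes were called, and in HCl3 against UT, 2 rose and none fell, where 14.8% were. These counts of called genes in the washed-out groups are thus no higher than the share over all genes. Without the fold threshold, 9 of the 18 had an adjusted P value under 0.05 in Ni-E against UT, where 11.6% of all genes did. Against UT there were 4 in Ni-W and 6 in HCl3, where 31.1 and 31.4% of all genes passed. ANKRD1, a transcriptional cofactor of stretched muscle, rose by 0.60 ± 0.20 for Ni-W and 1.83 ± 0.16 for HCl3 (DESeq2 adjusted P = 0.0145 and 1.90e-29), and CTGF, a secreted matrix protein, rose by 0.86 ± 0.15 for HCl3 (DESeq2 adjusted P = 1.34e-07). ANKRD1 was also 1.24 ± 0.14 higher on the log2 scale in HCl3 than in Ni-W (DESeq2 adjusted P = 9.46e-17), as was SORBS3, an adhesion adaptor, by 0.62 ± 0.096 (1.02e-08). Against Ni-E, 1 of the 18 was higher and 2 were lower in Ni-W, where 11.7% of all genes were higher and 8.81% lower. FILIP1L was higher by 0.99 ± 0.11 (DESeq2 adjusted P = 9.24e-17). Both TES (mean 3.99 against 7.97 RPKM, DESeq2 adjusted P = 1.11e-08) and FHL1 (20.9 against 33.9 RPKM, DESeq2 adjusted P = 9.80e-10) were lower. In HCl3 against Ni-E, 2 were higher and none was lower, where 10.4% of all genes were higher and 6.78% lower. These were FILIP1L by 0.83 ± 0.094 (DESeq2 adjusted P = 5.74e-17) and TGFB1I1, a focal adhesion adaptor also called Hic-5, by 0.74 ± 0.11 (5.64e-11). Without the fold threshold, 10 of the 18 passed in Ni-W and 13 in HCl3 against Ni-E, where 39.2 and 37.6% of all genes did. The list median was -0.23 for Ni-E, -0.14 for Ni-W and 0.05 for HCl3 against UT, where the 9 contractile genes had -0.40, 0.55 and 0.44. Against Ni-E it was -0.0091 for Ni-W and 0.34 for HCl3, where the 9 contractile genes had 0.98 and 0.83.

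The relatives of the 10 genes were counted in the same way. Of 11 relatives, 9 or 10 of them tested, from the transgelins, calponins, tropomyosins, light chains and myosin heavy chains, none was called against UT in any treated group, with 2 to 5 at an unadjusted P value under 0.05. With so few genes tested, and with 5.80, 15.7 and 14.8% of all genes called in these comparisons, a count of 0 does not set the relatives apart from other genes. MYL6, the essential light chain and the most abundant of them, was at a mean of 1186 RPKM over the 8 libraries. MYH9, the heavy chain of non-muscle myosin that MYL9 serves, was at a mean of 277 RPKM for UT, 198 for Ni-E, 287 for Ni-W and 324 for HCl3. It was the 1 relative called in HCl3 against Ni-E (log2 difference 0.70 ± 0.079, DESeq2 adjusted P = 2.36e-17), and none was called in Ni-W against Ni-E or in HCl3 against Ni-W. Of 10 genes that set light chain phosphorylation upstream of or against MYLK (such as RHOA, ROCK1 and the phosphatase subunit PPP1R12A), none was called in any of the 6 comparisons, with 2 to 6 at an unadjusted P value under 0.05. CALM2, a calmodulin gene, was the most abundant of these at a mean of 505 RPKM. Between 4.77 and 20.5% of all genes were called in the 6 comparisons. With 9 genes of the phosphorylation list tested, a count of 0 does not set that list apart from other genes either.

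Among the other actins, the cytoplasmic ACTB and ACTG1 made up nearly all of the RNA. Their mean levels in UT were 2116 RPKM for ACTB and 3821 RPKM for ACTG1. In HCl3, ACTB was at 2700 RPKM (log2 difference from UT 0.30 ± 0.087, DESeq2 adjusted P = 0.00358) and ACTG1 at 2715 RPKM (-0.55 ± 0.084, DESeq2 adjusted P = 1.79e-09). In Ni-W, ACTB was at 2521 RPKM (0.22 ± 0.11, DESeq2 adjusted P = 0.113) and ACTG1 at 2745 RPKM (-0.51 ± 0.098, DESeq2 adjusted P = 2.46e-06). For Ni-E the log2 differences were -0.22 ± 0.11 and -0.28 ± 0.12 (DESeq2 adjusted P = 0.173 and 0.0966). Neither gene reached 1.5-fold against UT. ACTC1, the cardiac alpha-actin, had 17 and 7 reads for UT, 8 and 3 for Ni-E, 236 and 163 for Ni-W, and 82 and 85 for HCl3. Against UT its log2 difference was 3.78 ± 0.44 for Ni-W and 2.55 ± 0.54 for HCl3 (DESeq2 adjusted P = 4.94e-16 and 2.26e-05), a rise in both, and it was lower in HCl3 than in Ni-W (log2 difference -1.24 ± 0.27, DESeq2 adjusted P = 9.31e-05). ACTC1 differed from ACTA2 in that its Ni-E libraries were not above those of UT.

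Genes whose profile was most like that of TAGLN were sought among 1662 genes whose normalized counts averaged 50 or more and whose group means spanned at least 1 on the log2 scale. By Pearson r of log2(normalized count + 1) over the 8 libraries, these were PDE4DIP (0.992), CPQ (0.989), EPHA4 (0.988), LINC00346 (0.985) and PLSCR4 (0.985). The median r over the candidates was 0.417 and the highest 5 percent began at 0.925. PDE4DIP, for example, had mean levels of 41.7 RPKM for UT, 25.3 for Ni-E, 50.3 for Ni-W and 49.8 for HCl3, and EPHA4, an ephrin receptor, had 3.24, 1.11, 4.04 and 4.07. Among the 10 genes, r with TAGLN was 0.946 for MYL9, 0.931 for CNN2, 0.930 for CALD1, 0.914 for TPM1, 0.906 for TAGLN2 and 0.845 for MYLK, and -0.19 for ACTA2, -0.46 for TPM2 and -0.51 for CNN1. The 10 genes were not among the candidates. TAGLN2, CNN2, TPM2 and CALD1 spanned less than 1 and CNN1 had too few reads, so the r of the candidates is not a like background for them. The 8 points come in 4 groups, so the r values describe the shared order of group levels and carry no P value.

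Marker lists were counted in the same way. Of all genes, 5.80% were called in Ni-E, 15.7% in Ni-W (10.9% higher) and 14.8% in HCl3 (11.1% higher) against UT. A count of 1 in lists this short does not set a list apart from other genes. The summed level of 7 epithelial markers was between 602 and 636 RPKM for UT, 579 and 794 for Ni-E, 947 and 972 for Ni-W, and 935 and 996 for HCl3, and 2 of the 7 rose in Ni-W and 3 rose in HCl3 against UT. The summed level of 10 smooth muscle markers was between 23.1 and 30.3 RPKM over all libraries, with 1 of them higher in Ni-W and 1 higher in HCl3 against UT, SYNM in both. The 7 fibroblast markers summed to between 514 and 580 RPKM for UT, 325 and 501 for Ni-E, 398 and 413 for Ni-W, and 641 and 670 for HCl3, and 1 rose and 2 fell in Ni-E, 1 fell in Ni-W (COL1A1) and 1 rose in HCl3 (COL1A2) against UT. The 5 endothelial and blood markers summed to between 1.07 and 2.02 RPKM over the UT and Ni-E libraries and between 2.96 and 4.27 over the others, with none called in Ni-E, 2 higher in Ni-W (CD14 and VWF) and 1 higher in HCl3 (CD14) against UT. VWF was low throughout, with 11 and 3 reads for UT and 35 and 30 for Ni-W (DESeq2 adjusted P = 0.0457). PECAM1, from the same list, had at most 3 reads in each library. The part of these markers in the levels of TAGLN and the other contractile genes was not tested.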

How the data were processed

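Data came from 8 RNA-Seq libraries of a bronchial epithelial line (BEAS-2B), with 4 groups of 2. The authors aligned reads to hg19 with STAR 2.4 (reads with several alignments removed) against RefSeq genes and obtained the deposited read counts per gene with BioWardrobe. The authors also deposited RPKM values, in which these counts are scaled to transcript length and mapped reads. Strand use in counting is not given in the sources used here.

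Counts of all 25411 genes were fitted with DESeq2 1.42.0 in R 4.3.3, with the 4 libraries of each pair of groups (two-sided Wald test, Benjamini-Hochberg adjustment over all genes tested). A gene was called at an adjusted P value under 0.05 and at least 1.5-fold. RPKM served for levels. Alternatives were the edgeR 4.0.16 quasi-likelihood test, limma 3.58.1 on log2-transformed RPKM with a pseudocount of 1 or 0.1, TMM size factors, all 8 libraries in one fit, a mean count of at least 10, no fold threshold, the replicate suffix as a block, removal of GC and length trends (GC content known for 98.3% of 13856 expressed genes, from GRCh38 transcripts of the same symbol), both together, and leaving out each library. A crossed block and the CArG search with 1 mismatch were chosen after seeing the data. Scripts were tested on simulated data. Figures were drawn with matplotlib 3.10.9.

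The 10 genes and the lists were chosen with earlier results of these data known. Named are the 10 genes, SRF, MKL1, MKL2 and MYOCD, from each other list at most 3 called genes per comparison with the largest change and a mean normalized count of at least 50 (otherwise the most abundant gene), and the 5 genes most like TAGLN. ACTB, ACTG1, RHOA, ROCK1 and PPP1R12A, SMTN, SYNM and other single marker genes, MYH9 in comparisons where it was not called, and FAS and other overlapping genes were named beyond this rule after their values were seen. Marker lists are given as sums and counts. Reads carry no molecular identifiers, so floors cover counting error only. Promoter sequences are from RefSeq (GRCh38.p14) and their coordinates are not to be mixed with the hg19 spans of the genes, which run over exons, introns and UTRs.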

Additional observations from a re-analysis of the deposited data

How the results depend on the processing

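Directions of called changes held under each alternative, and the 16 reversals were all at uncalled values. In Ni-E against UT, where 3 of the 10 genes were called, the count was 0 with limma at either pseudocount (no gene of the table was called), 8 with no fold threshold and 5 with the replicate block and GC and length trends removed. With limma, TAGLN was at -1.29 (adjusted P = 0.0901) with a pseudocount of 1 and at -1.30 (0.107) with 0.1. The cause was not tested. With no fold threshold the count was also 8 in Ni-W and in HCl3 against UT and 1 in HCl3 against Ni-W. Leaving out 1 library gave 1 to 4 called genes in Ni-E against UT, 3 to 4 for Ni-W and for HCl3 against UT, 6 in both comparisons against Ni-E and 0 in HCl3 against Ni-W, with TAGLN between -1.60 and -1.12 in Ni-E against UT. Replicate suffixes do not pair the samples, since same-suffix deviations correlated at between -0.16 and 0.22. The replicate block gave 2 genes (TPM1 was lost) and TAGLN at -1.36 in Ni-E against UT, 4 in Ni-W and in HCl3 against UT, 6 in both comparisons against Ni-E and 0 in HCl3 against Ni-W. The crossed block, chosen after seeing the data, gave 2, 4 and 6 genes in the 3 comparisons with r under -0.1. Over all genes, calls in Ni-E against UT ranged from 0 (limma) through 356 (without Ni-E replicate 1), 440, 491 (replicate block) and 496 to 1679 (no fold threshold), against 840. Reversed log2 differences were as follows. CNN2 in Ni-W against UT was 0.027 with limma at both pseudocounts, and -0.043 to 0.032 when 1 library was left out. CNN2 in HCl3 against UT was -0.012 with GC and length removed, with or without the block, and TPM2 in HCl3 against Ni-E was 0.016 without the block and 0.017 with it. ACTA2 ranged from -0.63 to 0.15 in Ni-W against Ni-E and from -0.20 to 0.52 in HCl3 against Ni-E when 1 library was left out. MYL9 in HCl3 against Ni-W was -0.066 with GC and length removed, -0.059 with the block as well and -0.038 to 0.14 when 1 library was left out, where TPM1 ranged from -0.096 to 0.14. Of the 5 genes most like TAGLN, 3 were kept by RPKM and 1 by Spearman rho. CNN1 and ACTA2 are limited by depth.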
